A study of Mus musculus with 7 samples.

Results

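The beta-defensins are a family of small secreted peptides, and 40 of their genes were followed in epididymal white adipose tissue of mice. They are all the rows of the deposited table whose probe set the array's platform table pairs with exactly 1 gene symbol, where that symbol is Defb followed by a number. Each of the 40 genes had 1 such row, among 19938 genes named in the same way, and the symbol Defb44-ps marks a pseudogene. Epididymal fat is a visceral fat depot attached to the epididymis and testis. The study compared 4 wild type samples with 3 samples that carry an aP2-XBP1 transgene, in which the Fabp4 (aP2) promoter, active in adipocytes and known also from macrophages, drives the transcription factor XBP1. All animals were male mice on a C57Bl/6J background, 17 weeks old and fed chow, and no other allele or agent was given for either group. Replicates carry numbers in the labels, which do not tie each to its own animal; p-values therefore reflect the scatter of these libraries, part of which may be technical.

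Values are log2 expression after RMA from a 1-colour array, 1 array per sample, with array medians between 3.99 and 4.04, and precision is limited by how many arrays there are. Adipocyte markers checked the tissue label, since all 9 measured of them lay above background in every library, with a list mean between 10.30 and 11.20. Markers of smooth muscle, spermatids and seminal vesicle set some libraries apart before any defensin is considered. Smooth muscle markers averaged 8.79 to 9.33 in 3 libraries, wild type replicates 1, 3 and 4, against 6.34 to 6.86 in the other 4. Spermatid markers averaged 7.09 in wild type replicate 4 and at most 3.18 elsewhere. Seminal vesicle markers had a mean of 5.75 in wild type replicate 2, while transgenic replicate 3 stood at 3.16, against 2.16 to 2.33 in the other 5.

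Beta-defensins are cationic peptides folded around conserved disulfide bonds. They can damage microbial membranes, and some attract immune cells through the receptor Ccr6. Many members are made by epithelia that face the outside, and a large part of the mouse family is known from the epididymis, where the peptides are secreted into the lumen, bind to sperm and take part in sperm maturation. The genes lie in a few runs of neighbours that arose by duplication. RefSeq's gene table (GRCm38.p6) placed all 40 members in 5 such runs, allowing fewer than 10 other protein-coding genes between members.

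Most of the family read within the range of genes that fat is not known to use. The table holds no detection call, so a member was called expressed in a library where it exceeded the 95th percentile of 1193 probe sets for olfactory and vomeronasal receptors, which lay between 2.97 and 3.09. By that line 14 of 40 members (35%) were expressed in at least 1 library and 26 in none, against 77.8% of all genes expressed in at least 1 library. Receptor probe sets themselves passed in at least 1 library in 7.71% of cases. The median over the members was 2.40 to 2.59 in the libraries, above the 2.13 to 2.19 of the receptor probe sets. Expressed in every library were 8 members (20%), against 68.5% of all genes and 2.93% of receptor probe sets. The number of members above the line was 9 to 11 in each library, and it was 11 in wild type replicates 1 and 4. The line is a convention, since probe sets differ in their own background. With the 90th percentile 18 members were expressed in at least 1 library and 10 in every library. With the 99th percentile, or with the median of all probe sets, 5 were expressed in at least 1 library, and by either line they were Defb42, Defb43, Defb30, Defb25 and Defb36. Expressed in every library was then 1 member, Defb25, by the 99th percentile and 0 by the median.

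**Figure D1:**
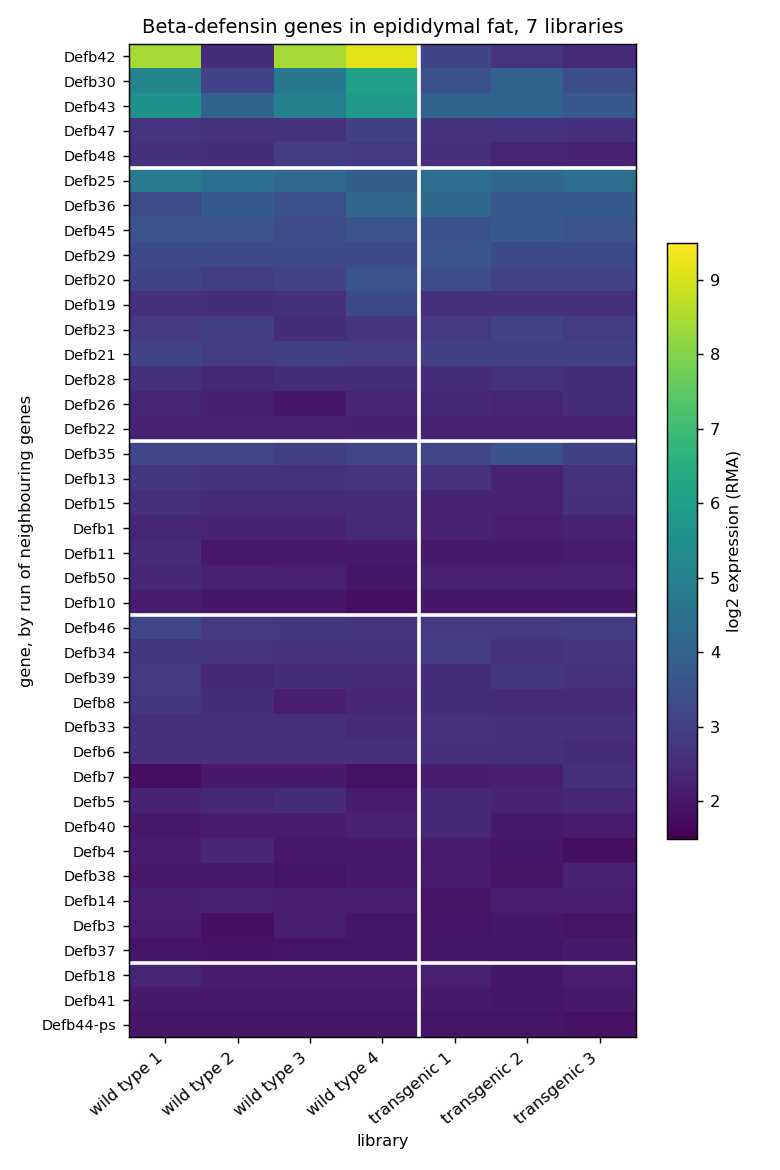
Log2 expression (colour) of the 40 beta-defensin genes (rows) in the 7 libraries (columns). White horizontal lines part the runs of neighbouring genes, the white vertical line parts the genotypes, and Defb42 in wild type replicates 1, 3 and 4, at 8.41 to 9.14, is the brightest set of cells.

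Between the lowest and the highest library, 3 of 40 members (7.5%) differed by at least 1 on the log2 scale, against 10.3% of all genes, which is a similar share. These were Defb42, Defb43 and Defb30, which belong to the same run of 5 neighbours. Among the 35 members outside that run 0 reached a range of 1, and the widest was 0.96, in Defb25. The 37 members with a smaller range read between 1.80 and 4.81 and had a median range of 0.38. In 33 of 40 members at least 1 pair of libraries held exactly the same value, so small orderings between libraries carry little information. Ties were not counted over all genes, so no share stands beside this count.

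Defb42, whose transcript is known from the epididymis, had the widest range in the family. Its probe set (10415838) read 8.41, 2.51, 8.41 and 9.14 in wild type replicates 1 to 4, and 3.17, 2.69 and 2.48 in transgenic replicates 1 to 3. Wild type replicates 1, 3 and 4 were high, and the other wild type library lay within the transgenic values. Wild type replicate 2 and transgenic replicates 2 and 3 were under the background line, so Defb42 has no measured level there, and transgenic replicate 1 was 0.088 above it.

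Defb43 and Defb30 had the same 3 libraries on top, over a higher floor. Defb43 (10415835) read 5.62, 4.04, 5.01 and 5.84 in the wild type libraries and 4.03, 4.01 and 3.72 in the transgenic ones. Defb30 (10420724) read 5.13, 3.14, 4.74 and 6.06 in wild type, and 3.47, 4.00 and 3.42 in transgenic fat. In all 3 genes wild type replicate 4 held the highest value. Both Defb43 and Defb30 stayed above the 95th percentile line in every library. By the 99th percentile Defb43 passed in 6 libraries and Defb30 in 4, and by the median of all probe sets they passed in 6 and 3, so their expression in the low libraries depends on the line.

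The remaining neighbours, Defb47 and Defb48, stayed near background. Defb47 (10415832) read 2.75, 2.68, 2.68 and 3.09 in wild type and 2.68, 2.68 and 2.60 in transgenic fat. It passed the line in wild type replicate 4 alone. Defb48 (10420721) read 2.62, 2.53, 2.97 and 2.85 in wild type and 2.62, 2.33 and 2.26 in transgenic fat, and it passed the line nowhere.

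**Figure D2:**
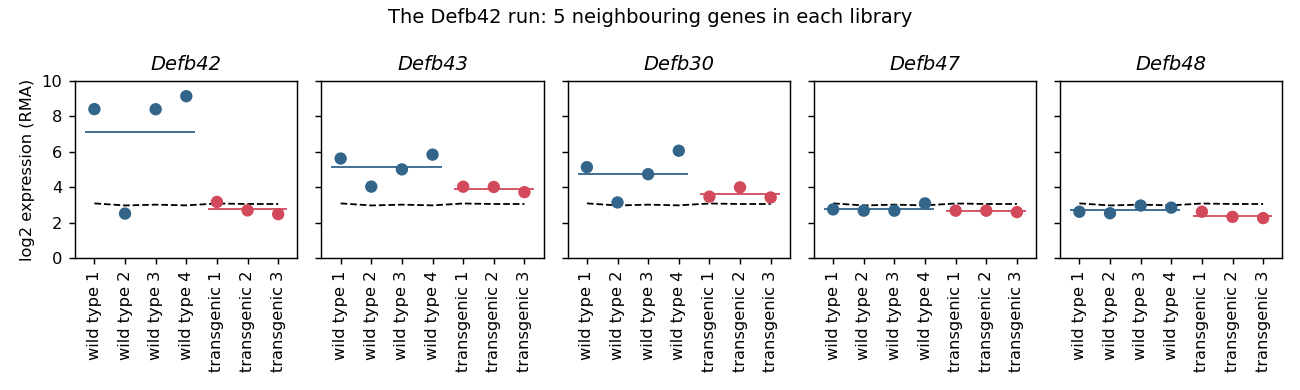
Log2 expression of the 5 neighbouring genes in each library (points), with the mean of each genotype (horizontal lines: blue, wild type, n = 4; red, transgenic, n = 3) and the background line (dashed). Defb42, Defb43 and Defb30 are highest in wild type replicates 1, 3 and 4, while Defb47 and Defb48 stay between 2.26 and 3.09.

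The starts of the 3 genes that moved together are shown because these neighbours had the same libraries on top. RefSeq's promoter table (GRCm38.p6) matched 28 of the 40 members, with 29 windows of 300 bases from 250 before to 50 after a gene's start. The windows of Defb42 (chr14:63046741-63047040, plus strand), Defb43 (chr14:63011521-63011820, plus strand) and Defb30 (chr14:63037797-63038096, minus strand) read 5′ to 3′ as follows. Capitals mark matches on either strand to AGAACA, the half-site of androgen receptor elements, or to TATAAA, the TATA box. The matches did not overlap.
Defb42: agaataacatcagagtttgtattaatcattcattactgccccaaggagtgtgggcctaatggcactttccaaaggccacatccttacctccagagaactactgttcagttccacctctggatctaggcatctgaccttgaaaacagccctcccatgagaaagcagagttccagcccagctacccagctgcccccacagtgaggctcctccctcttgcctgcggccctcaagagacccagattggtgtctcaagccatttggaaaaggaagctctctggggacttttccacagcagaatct
Defb43: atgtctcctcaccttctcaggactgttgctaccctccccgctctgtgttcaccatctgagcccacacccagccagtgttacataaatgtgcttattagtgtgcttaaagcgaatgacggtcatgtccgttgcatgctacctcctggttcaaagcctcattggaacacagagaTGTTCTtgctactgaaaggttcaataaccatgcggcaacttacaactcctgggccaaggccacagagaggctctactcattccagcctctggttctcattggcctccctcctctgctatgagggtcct
Defb30: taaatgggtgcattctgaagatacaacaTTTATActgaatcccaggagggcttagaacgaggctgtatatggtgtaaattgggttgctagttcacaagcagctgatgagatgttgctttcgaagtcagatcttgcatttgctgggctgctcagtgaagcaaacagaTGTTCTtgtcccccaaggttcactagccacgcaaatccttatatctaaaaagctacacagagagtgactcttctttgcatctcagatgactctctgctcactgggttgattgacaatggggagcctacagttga
Defb30 and Defb42 point away from each other, with starts 9.14 kb apart. AGAACA or its reverse complement occurred once in the windows of Defb43, Defb30, Defb47 and Defb48 and in 0 places in that of Defb42. It occurred in 18 of 29 member windows (62.1%) and in 6233 of 32851 windows of all genes (19.0%). Paralogs can share sequence at their starts, so member windows are not separate counts. TATAAA on either strand occurred in 5 of 29 member windows (17.2%) and in 13.6% of all windows, and Defb30 and Defb48 held it among these 5 neighbours. A match here is a string of letters and not a measured binding site.

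To ask which members follow the epididymal transcripts, libraries were ordered by the mean of a reference list of epididymal genes that holds no defensin. Of 31 genes listed 28 were measured. The mean was 3.67 in wild type replicate 4, 3.54 in replicate 3 and 3.50 in replicate 1. The mean was 3.13, 3.03 and 2.86 in transgenic replicates 1 to 3 and 2.84 in wild type replicate 2, so the widest step fell below wild type replicates 1, 3 and 4. That step rests on 3 of the 28 genes, Serpina1f, Spink8 and Cd52, whose lowest value in those libraries exceeded their highest value elsewhere by at least 1.

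In wild type replicates 1, 3 and 4 Serpina1f, a serpin, read 10.70, 10.84 and 11.50, and in the others 2.74 to 3.73. Spink8, a protease inhibitor, read 8.82, 8.89 and 9.51 there and 2.45 to 2.89 elsewhere. Cd52, a surface glycoprotein of epididymal epithelium that lymphocytes also carry, read 9.98, 9.67 and 10.33 there and 6.24 to 6.64 elsewhere. Of the list's members 15 of 28 were expressed in no library, among them Rnase9, Crisp4 and Gpx5, secretory genes known from the epididymis. Cuzd1 was expressed in every library and went another way, from 5.23 in wild type replicate 1 to 7.33 in transgenic replicate 1. Because the libraries were parted by measured values and are not groups of the study, the comparison is a description with no test, and no correlation was taken over 7 libraries that fall into separate clusters.

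Defb42 followed these transcripts and was the 1 member (2.5%) to do so by a step of at least 1, against 0.396% of all genes. Its lowest value in wild type replicates 1, 3 and 4 lay 5.24 above its highest elsewhere. Defb42 was already known to move with these libraries when the question was set, so its place is no independent support. The members just outside that limit were Defb43, with a step of 0.97, and Defb30, with 0.74, and no other member had a step above 0. Without wild type replicate 3 the count was 3, and without transgenic replicate 2 it was 2. With Serpina1f and Spink8 left out of the list, or with the list's median in place of its mean, the widest step parted other libraries and 0 members followed. With Cd52 alone as the reference, chosen after the data were seen, the count was 1.

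**Figure D3:**
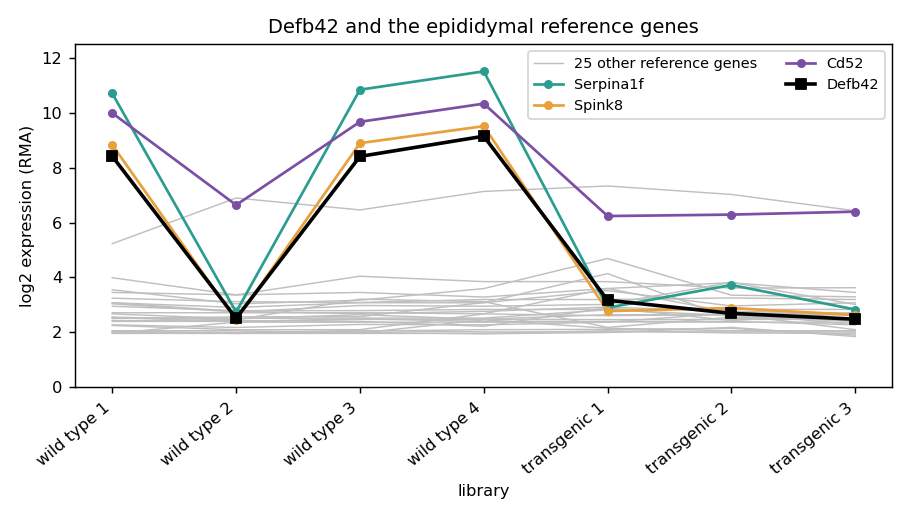
Log2 expression of Defb42 (black) and of the 28 measured genes of the epididymal reference list (coloured and grey) in each library; lines join the values of 1 gene and stand for no order of the libraries. Defb42, Serpina1f, Spink8 and Cd52 are high in wild type replicates 1, 3 and 4, and the grey genes show no step of at least 1 there.

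The genes most like Defb42 in profile were sought among all genes outside the family, by the root mean square difference over the 7 libraries after each profile was centred on its own mean. Spink8 was nearest, at 0.28. Next came Pcp4, a calmodulin regulator, at 0.44 and Ptgs2, the inducible cyclooxygenase, also at 0.44. Gm5087 followed at 0.69 and Cnn1, calponin of smooth muscle, at 0.81. Ptgs2 reached 11.09, 11.28 and 11.84 where Defb42 was high, and 4.20 to 5.10 in the other 4 libraries.

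Some markers of other cells moved with Defb42 as well. Of 10 smooth muscle markers 8 had a step of at least 1 between wild type replicates 1, 3 and 4 and the rest. Among all genes 0.396% had such a step. Epithelial markers averaged 5.52 to 5.75 in the same 3 libraries, against 4.69 to 4.96 in the others, and 1 of 16 had a step of at least 1. That gene was Cldn4, a tight junction claudin, at 6.27, 6.37 and 6.76 against 4.72 to 5.07. Just outside that limit was Pax8, with a step of 0.98, followed by Cldn7 with 0.57 and Cdh1 with 0.47. The lowest steps were -3.30 in Atp6v0d2 and -0.49 in Krt8. The median step over the 16 was 0.00082. Atp6v0d2 had the widest range of this list and went another way. It read 8.75, 7.56, 8.67 and 4.26 in the wild type libraries and 4.57, 4.84 and 6.46 in the transgenic ones. Like the mean of the macrophage and neutrophil markers, it was highest in wild type replicates 1 and 3 and lowest in replicate 4. Which cells carried Atp6v0d2 was not tested. Adipocyte markers went the other way, with means of 10.30, 10.56 and 10.70 in wild type replicates 1, 3 and 4 and 11.01 to 11.20 in the others. Macrophage and neutrophil markers parted these 3 libraries from each other. They averaged 5.91 and 5.82 in wild type replicates 1 and 3 but 4.90, the lowest mean, in wild type replicate 4. Spermatid markers had no step of at least 1 in any of 10 genes, and seminal vesicle markers in none of 9. The part of these cells in the values of Defb42, Defb43 and Defb30 was not tested. In bulk tissue, fewer cells of a type and less RNA per cell cannot be told apart.

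Defensins of the run from Defb23 to Defb25, many of whose members are known from the epididymis, did not have those 3 libraries on top. Of its 11 members 8 were expressed in at least 1 library, against 77.8% of all genes. In every library 5 of the 11 were expressed, against 68.5% of all genes. Defb25 (10488652) read 4.81, 4.43, 4.25 and 3.85 in the wild type libraries and 4.39, 4.14 and 4.39 in the transgenic ones. Its highest and lowest values both lay in wild type fat, in replicates 1 and 4, which were both rich in Defb42. Defb36 (10477134) read 3.34, 3.77, 3.44 and 4.15 in wild type and 4.21, 3.77 and 3.77 in transgenic fat. Here transgenic replicate 1 was highest and wild type replicate 1 lowest.

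The other members of this run that passed the line in every library did so narrowly. Defb45 (10488646) read 3.57, 3.57, 3.34 and 3.57 in wild type and 3.53, 3.72 and 3.57 in transgenic fat. Defb29 (10488639) read 3.28, 3.31, 3.31 and 3.30 in wild type, with 3.61, 3.31 and 3.31 in transgenic fat. Defb20 (10477122) stood at 3.18, 2.99, 3.14 and 3.56 in wild type and at 3.39, 3.14 and 3.11 in transgenic fat. Defb20 was highest in wild type replicate 4 and Defb29 in transgenic replicate 1, and the genotypes overlapped for each of these genes. Defb19, known from the testis, read 3.27 in wild type replicate 4 and 2.55 to 2.57 in all other libraries. The spermatid markers were high in the same library, and their part in this value was not tested. Defb22, whose peptide coats sperm, read 2.20 to 2.28 and was expressed in no library.

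The other 3 runs held little signal. Of the 14 members from Defb40 to Defb33 only Defb46 passed the line, in wild type replicate 1, at 3.19. These include Defb3, Defb4 and Defb14, defensins of airway and skin that rise with infection, which read between 1.80 and 2.35. They also include Defb37, Defb38, Defb39 and Defb40, described from the epididymis, at 1.90 to 2.83. Of the 7 members from Defb1 to Defb13 only Defb35 (10570754) passed, and it did so in every library. It read 3.19, 3.19, 3.03 and 3.19 in wild type and 3.19, 3.47 and 3.09 in transgenic fat. Defb1, made constitutively in kidney and other epithelia, read 2.16 to 2.45. Defb41, known from the upstream part of the epididymis, stayed at 2.01 to 2.08, and its neighbours Defb18 and Defb44-ps at 1.89 to 2.34. Nearly identical copies in these runs may share signal, so their values are uncertain as values of single genes.

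By genotype, 0 of 40 members passed limma's adjusted p of 0.05, as did 0% of the 21789 probe sets tested in either direction. At an unadjusted p under 0.05, limma found 3 members (7.5%) lower in transgenic fat, Defb43, Defb42 and Defb48, against 3.12% of all probe sets. It found 1 member (2.5%) higher, Defb7, against 4.82%. Transgenic means were lower in 21 members and higher in 19. The median difference, transgenic minus wild type, was -0.01 over the members and 0.01 over all probe sets tested.

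The mean of Defb42 was 7.12 ± 3.09 (SD, n = 4) over the wild type libraries. Over the transgenic libraries it was 2.78 ± 0.35 (SD, n = 3). The difference was -4.34 (SE 1.62, limma adjusted p = 0.622). A two-sided exact permutation test over all 35 ways to draw 3 of 7 libraries gave p = 0.114. Transgenic replicates 2 and 3 and wild type replicate 2 were under the background line, so this and the following differences are between deposited values and do not measure a ratio of expression. The groups overlapped through wild type replicate 2. Without that library limma called Defb42 lower in transgenic fat, at -5.87 (adjusted p = 0.00843), 1 of 84 probe sets called lower, beside 7 called higher. That leaves wild type replicates 1, 3 and 4, the libraries parted above by measured values, in which Defb42 was already known to be high. The adjusted p is therefore no independent support for a difference by genotype. With wild type replicate 2 as the sole control the difference was 0.27.

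Wild type libraries averaged 5.13 ± 0.81 (SD, n = 4) for Defb43, and the transgenic ones 3.92 ± 0.17 (SD, n = 3). The difference was -1.20 (SE 0.43, limma adjusted p = 0.622, exact permutation p = 0.0571). Its groups parted by 0.0055, between wild type replicate 2 and transgenic replicate 1. For Defb30 the means were 4.77 ± 1.22 (SD, n = 4) and, in transgenic fat, 3.63 ± 0.32 (SD, n = 3). They differed by -1.14 (SE 0.65), the groups overlapped, and against wild type replicate 2 alone the difference was 0.49. Defb48 differed by -0.34 (SE 0.14) between values under the background line.

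Defb7 was the member that differed most in the other direction. It read 1.81, 2.08, 2.07 and 1.84 in wild type and 2.10, 2.17 and 2.57 in transgenic fat, a difference of 0.33 (SE 0.14, limma adjusted p = 0.628). The groups did not overlap, and the exact permutation p = 0.0286 is the smallest this design allows. All 7 values were under the background line. Defb26, also under it in every library, read 2.34, 2.22, 2.02 and 2.32 in wild type and 2.41, 2.32 and 2.50 in transgenic fat, a difference of 0.19 (SE 0.09). The 6 members expressed in every library outside the Defb42 run differed by between -0.03 (Defb25) and 0.24 (Defb36).

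**Figure D4:**
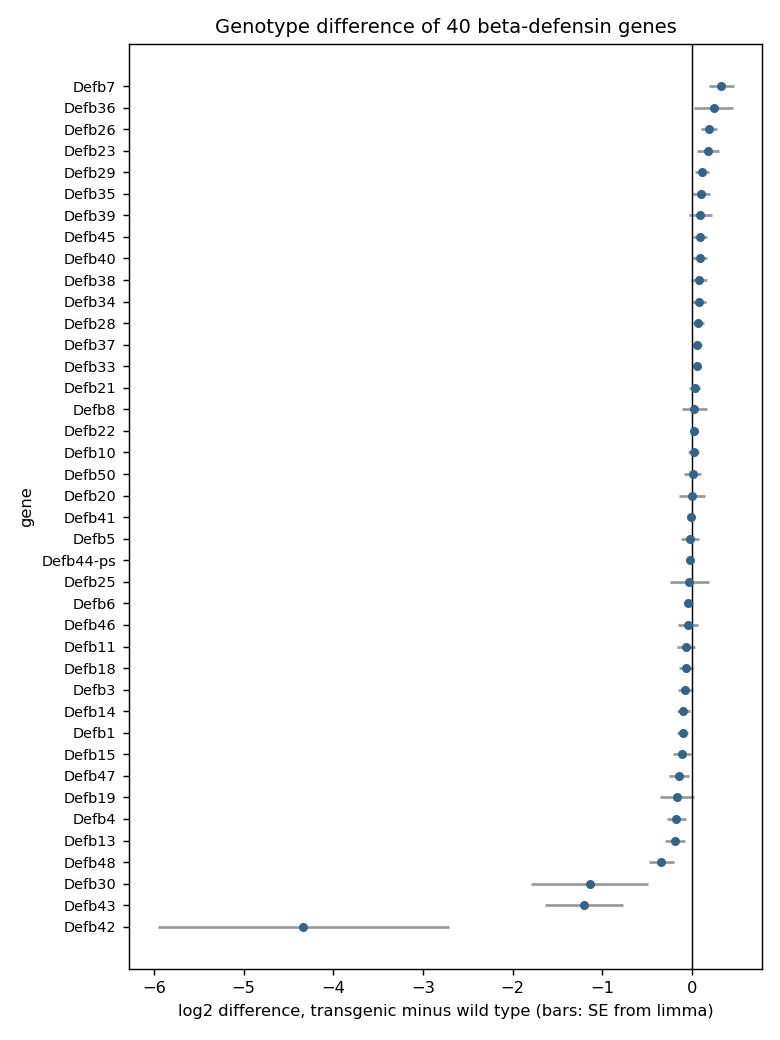
Log2 difference, transgenic minus wild type, of each of the 40 genes (points) with limma's standard error (bars). Defb42, Defb43 and Defb30 lie apart at -4.34, -1.20 and -1.14 with wide errors, and the others lie between -0.34 and 0.33.

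Other genes of mucosal defence were read beside the family. Spag11a and Spag11b, beta-defensin-like genes of the epididymis with another name, read 2.66 to 3.10 and 2.50 to 2.96. Ccr6, the receptor that some beta-defensins bind, read 2.56 to 2.89 and was expressed in no library. Of 12 measured alpha-defensins and other antimicrobial genes 6 were expressed in at least 1 library, against 77.8% of all genes. Of these 12 genes 0 had a step of at least 1 between wild type replicates 1, 3 and 4 and the rest. Lcn2, an iron-sequestering lipocalin that adipocytes also make, had the widest range of this list and read lowest in wild type replicate 1, at 6.84, and highest in wild type replicate 4, at 9.05. Of 11 measured receptors and regulators 8 were expressed in every library, against 68.5% of all genes, and 0 had such a step. Among all genes 0.396% had it, so a count of 0 in lists this short carries little information.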

How the data were processed

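Log2 values of 35556 probe sets were deposited as 1 table, made with RMA per the submitters' processing notes; its version, the probe set definition and the genome build were not given in the sources used here. RMA corrects background and brings arrays to a common distribution, so a shift of all genes would not be seen. Genes were named from the platform's annotation, and 21789 probe sets with exactly 1 symbol were tested. Differences were fitted with limma 3.58.1 (lmFit, eBayes, two-sided, Benjamini-Hochberg, threshold 0.05) in R 4.3.3 on all 7 samples with genotype as the only term, and the fit was tested on simulated data. Array weights used statmod 1.5.0, and figures matplotlib 3.10.9.

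Values per library were given for Defb42, for expressed members that followed the reference list, for members expressed in every library and for the 3 others with the smallest p; Defb47 and other named genes were chosen after their values were seen. Members and lists were chosen with earlier results of these data known. Same-numbered samples did not deviate together (correlations -0.14, -0.09 and 0.06), so numbers were not used as pairs. Alternatives were another quantile normalization, a common median, a replicate block, an intensity trend with robust prior, array weights, filters on rows, other lines and steps, and leaving out libraries.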

Additional observations from a re-analysis of the deposited data

Results flagged for a closer look

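In 14 of 40 members (35%) 1 of the 4 wild type libraries stood far from the others relative to their range, against 23.6% of all genes. Chance would mark about 1 group in 20, but exact ties among dim values can mark more. Defb42 stood out through wild type replicate 2, at 2.51, and Defb19 through wild type replicate 4, at 3.27. The other 12 rest on differences of at most 0.41 among dim values. Wild type replicate 1 stood high for Defb15 (2.62), Defb18 (2.34) and Defb11 (2.45), and wild type replicate 2 high for Defb14 (2.22) and low for Defb37 (1.90). Wild type replicate 3 was low for Defb45 (3.34), Defb35 (3.03) and Defb38 (1.96), and wild type replicate 4 low for Defb6 (2.58), Defb33 (2.45), Defb22 (2.20) and Defb41 (2.04).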

How the results depend on the processing

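Of 17 alternatives to the fit, leaving out wild type replicate 2 was the 1 that called a member (Defb42). The wild type libraries it keeps are those where Defb42 was already known to be high, so the call is no independent support. With each library left out, calls over all probe sets ran from 0 to 84 lower and from 0 to 7 higher, and members called from 0 to 1. Members expressed in at least 1 library ran from 12 to 14 and members that followed the reference list from 1 to 3. With the 90th percentile as the line 18 members were expressed in at least 1 library, and with the 99th percentile or the median of all probe sets 5. The count expressed in every library, 8, became 10, 1 and 0 by these lines, counts added with the data in view. With a step above 0, or of at least 0.5, 3 members followed; without Serpina1f and Spink8 in the list, or by its median, 0 did. The replicate block called 0 members, with Defb42 at -3.66, and changed no call. It turned Defb20 to 0.11, as quantile normalization did to 0.015, a common median to 0.037 and array weights to 0.036. Defb25 turned to 0.012 under quantile normalization and 0.013 under a common median. Both genes started near 0. Against wild type replicate 2 alone Defb42 was 0.27, Defb30 0.49 and Defb20 0.22. With each library left out, Defb20 ran from -0.094 to 0.11, Defb25 from -0.19 to 0.13 and Defb35 from -0.0076 to 0.18. The cause of these turns was not tested. Dim signal limits most members, Defb47 and Defb48 of the Defb42 run among them, and only 10 of 40 passed the filter on dim probe sets.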

Other observations

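A row paired with both Defb35 and Defb12 was not counted as a member and read 2.84 to 3.14. Transgenic replicate 1 held the highest values of Lcn8 (4.14) and Adam7 (4.69), genes of the upstream epididymis named after their values were seen, which read at most 3.09 and 3.60 in the other libraries. Both were picked from the 28 measured genes of the reference list, which did not move as one. Lcn9 was also highest in transgenic replicate 1, at 3.60, but Lcn5 was highest in transgenic replicate 2, at 3.82 against 3.02. Gpx5 was highest in wild type replicate 4, at 2.68, under the background line. In transgenic replicate 1 Defb42 read 3.17, its highest value outside wild type replicates 1, 3 and 4. A link between these values was not tested.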
